A study of Saccharomyces cerevisiae with 17 samples.

Results

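The 10 genes described here encode the catalytic core of the yeast Rpd3 histone deacetylase (RPD3, SIN3, UME1), enzymes and relatives that remove methyl groups from histone H3 (RPH1, JHD1, GIS1), the methyltransferases of 2 other H3 residues (SET1, DOT1) and the ATPase and the H3K36-reading subunit of the Isw1b nucleosome remodeler (ISW1, IOC4). They were listed by systematic name, with earlier results of these data known, and all 10 have a row among the 5326 genes of the table. The samples were haploid budding yeast, Saccharomyces cerevisiae BY4741, of mating type MATa and carrying the his3-, leu2-, met15- and ura3- markers in every genotype, grown in YPD, a rich glucose medium, at 30 °C to mid-log phase. Besides wild type there were 3 mutants, the set2 deletion (set2∆), the H3K36A point mutation and the eaf3 deletion (eaf3∆), which makes 4 genotypes with 2 biological replicate libraries of rRNA-depleted RNA each. The sources used here do not give how many histone H3 gene copies carry the mutation or how many independent clones were used.

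Set2 methylates lysine 36 of histone H3 behind transcribing RNA polymerase II. The chromodomain of Eaf3 binds that mark, and the small Rpd3 complex, Rpd3S, which contains Eaf3, then deacetylates nucleosomes in gene bodies and keeps internal promoters silent. The PWWP domain of Ioc4 binds the same mark and brings Isw1b, which limits histone exchange over genes. The comparison asks whether loss of the methyltransferase, of the residue or of the reader Eaf3 is accompanied by a different RNA level of this machinery.

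Each value is the authors' mean RPKM of a genotype, that is, reads divided by gene length and library size, so levels of different genes can be set side by side. The spread between the replicates and the reads behind each mean are unknown, no difference was tested, and differences are stated as sizes only. All 3 mutants are set against the same wild-type values. In a culture, less RNA per cell and fewer cells that express a gene cannot be told apart, nor can either from a larger share of reads taken by other genes. Ratios are log2((mutant + 1)/(wild type + 1)). "At least 2-fold" means beyond -1 or 1 on that scale, which understates the change of low genes. Most genes of the table were lower in each mutant: the median log2 ratio of all genes was -0.32 in set2∆, -0.44 in H3K36A and -0.48 in eaf3∆. A "relative log2" below is the log2 ratio minus that median. SET2, EAF3 and the Rpd3S subunit gene RCO1 have no row in the table as used here, so the genotypes were not checked on the altered genes.

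All 10 genes had their highest RPKM in wild type, which was also the case for 67.0% of all genes. Of their 30 ratios to wild type, 7 were at least 2-fold lower and 0 at least 2-fold higher, where 1.07%, 3.15% and 1.18% of all genes were higher in set2∆, H3K36A and eaf3∆. In set2∆ it was 1 of the 7 (DOT1), where 11.4% of all genes passed. H3K36A held 3 (DOT1, ISW1, IOC4), against 23.5% of all genes, and eaf3∆ 3 (GIS1, DOT1, ISW1), against 22.9%. With so few members these shares lie near those of all genes. IOC4 in eaf3∆ kept 47.5% of its wild-type RPKM, against 47.7% for ISW1. With 1 added to each RPKM the log2 ratio of IOC4 there was -0.94, just short of 2-fold. After the shift of the median gene was subtracted, 0, 1 and 0 members passed, IOC4 in H3K36A, against 3.77%, 9.71% and 8.05% of all genes, and 5 of 10 members lay below the median gene in all 3 mutants, against 40.0% of all genes. The deacetylase core had relative log2 between -0.10 and 0.32, while DOT1, ISW1 and IOC4 lay furthest below the median gene in set2∆ and H3K36A, and DOT1 and GIS1 did in eaf3∆.

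**Figure D1:**
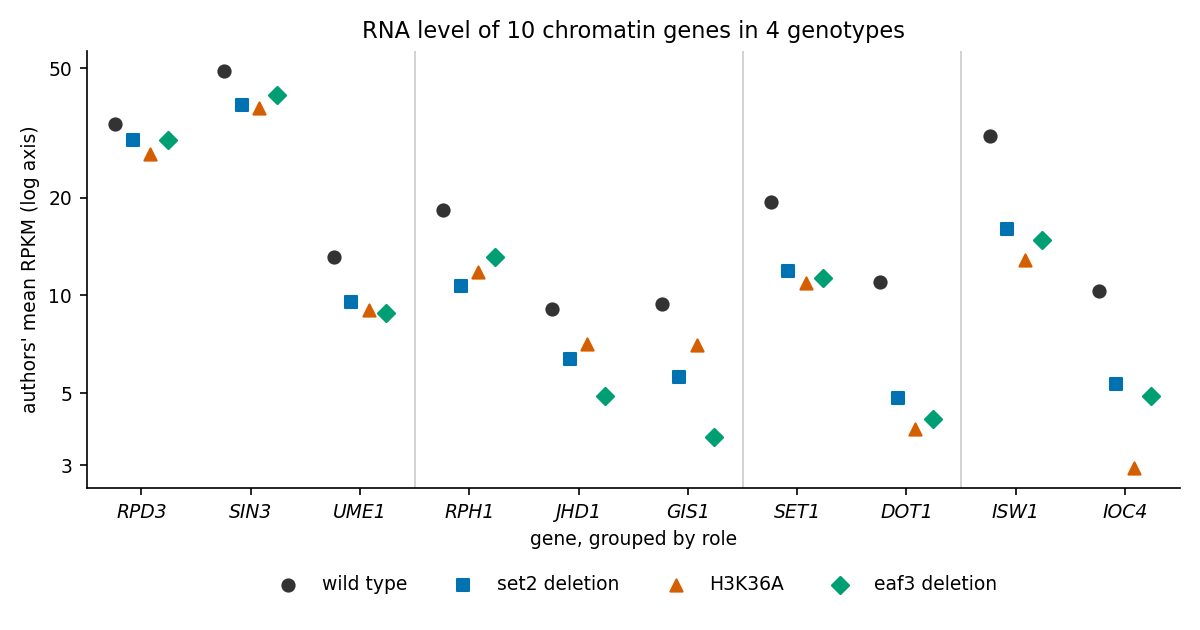
Authors' mean RPKM (log axis) of the 10 genes, grouped by role, in wild type and the 3 mutants; each point is the mean of a genotype, with no error available. Wild type is the highest point of every gene, SIN3 and RPD3 are the highest genes in every genotype, and the lowest point of all is IOC4 in H3K36A at 2.94.

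The members spanned a narrow part of the range of RNA levels. In wild type they lay between 9.08 (JHD1) and 49.2 (SIN3), and 7 of 10 were below the median gene of the table, which had an RPKM of 23.0. The 3 above it were SIN3, RPD3 and ISW1. In each mutant 8 were below the median gene, with ISW1 now among them: it stood above 58.7% of genes in wild type and above 47.7%, 44.4% and 49.0% in set2∆, H3K36A and eaf3∆. SIN3, RPD3 and ISW1 were the highest members in every genotype, in that order, with SET1 and RPH1 next and UME1 after them. The order of the 4 lowest, JHD1, GIS1, DOT1 and IOC4, differed between genotypes. In wild type DOT1 and IOC4 were above GIS1 and JHD1. In set2∆ and H3K36A they were the lowest of the 10, and in eaf3∆ GIS1 was the lowest. Each of these 4 had a mean RPKM below 10 over the genotypes. H3K36A was the lowest genotype for 6 of the 10 genes, against 36.8% of all genes, and eaf3∆ for 3, against 40.4%.

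Rpd3 is the catalytic deacetylase subunit of both the large complex, Rpd3L, which is brought to promoters, and Rpd3S. RPD3 (YNL330C, chromosome XIV 18001 to 19302, coordinates of the R64 assembly throughout) had an RPKM of 33.7 in wild type, 30.1 in set2∆, 27.2 in H3K36A and 29.99 in eaf3∆. Its log2 ratios of -0.16, -0.30 and -0.16 were the smallest in size among the 10 genes in all 3 mutants. Relative to the median gene they were 0.16, 0.15 and 0.32, so the direction depends on the scale: RPD3 was lower on the authors' scale and when RPKM was rescaled without small RNAs, and higher on the other 3 scales tried.

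Sin3 is the scaffold of both Rpd3 complexes. SIN3 (YOL004W, chromosome XV 316938 to 321548), the longest of the 10 genes at 4611 bp, had an RPKM of 49.2 in wild type, 38.4 in set2∆, 37.7 in H3K36A and 41.4 in eaf3∆. Its relative log2 was -0.03, 0.07 and 0.24, and it stood above 70.3% of genes in wild type and above 69.4%, 70.0% and 72.6% in the mutants, close to the same rank in each genotype, and its direction differed between scales in each mutant. UME1 (YPL139C, chromosome XVI 289669 to 291051), which encodes a WD-repeat subunit shared by both complexes, was expressed below its partners, with 13.1 in wild type, 9.57 in set2∆, 9.02 in H3K36A and 8.84 in eaf3∆. Its relative log2 lay between -0.10 and -0.04 in the 3 mutants, and quantile normalization turned it to between 0.07 and 0.16. Within a genotype, a ratio of RPKM does not depend on a single factor by which all genes of that genotype are scaled. Quantile normalization and centring within groups of gene length can change it. The ratio of RPD3 to SIN3 was 0.686 in wild type and 0.783, 0.721 and 0.725 in set2∆, H3K36A and eaf3∆.

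**Figure D2:**
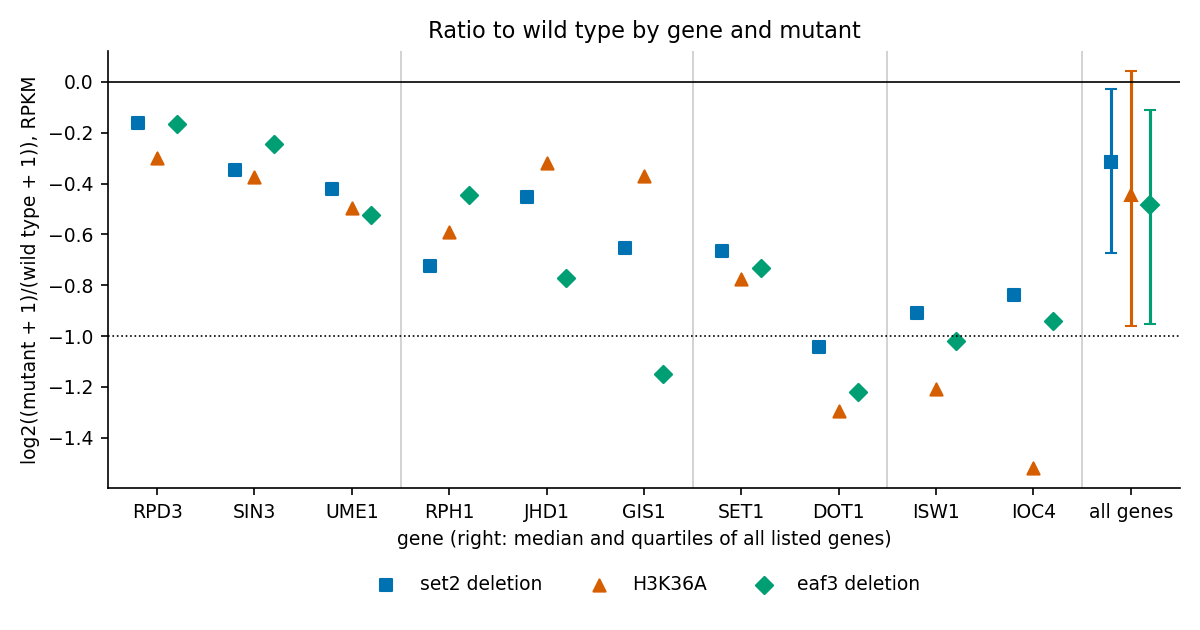
Log2((mutant + 1)/(wild type + 1)) of each of the 10 genes in set2∆, H3K36A and eaf3∆; at the right, the median of all 5326 genes with bars from the lower to the upper quartile, and the dotted line marks 2-fold lower. RPD3 lies above the median gene in all 3 mutants, and DOT1, ISW1 and IOC4 lie below the median gene in all 3 mutants.

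In the demethylase family, RPH1 had its lowest value in set2∆ and both JHD1 and GIS1 in eaf3∆. Rph1 is a JmjC-domain demethylase of trimethylated lysine 36 and also a zinc-finger repressor. RPH1 (YER169W, chromosome V 523369 to 525759) had an RPKM of 18.3 in wild type, 10.7 in set2∆, 11.8 in H3K36A and 13.2 in eaf3∆. It was the only one of the 10 with its lowest value in set2∆, which was the lowest genotype for 8.96% of all genes. Its relative log2 there was -0.41, below 0 on all 5 scales, whereas in eaf3∆ it was 0.04 and depended on the scale for its direction. Between those 2 mutants RPH1 was higher in eaf3∆ by 0.28 on the log2 scale, or 0.45 relative to the median gene, and 95.6% of genes had a lower ratio between them.

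Gis1, the paralog of Rph1, carries the same type of domains and is known as a transcription factor of genes used after glucose runs out. GIS1 (YDR096W, chromosome IV 637139 to 639823) had an RPKM of 9.38 in wild type, 5.60 in set2∆, 7.03 in H3K36A and 3.67 in eaf3∆. Its lowest genotype was eaf3∆, with 39.2% of the wild-type RPKM and a relative log2 of -0.67. Compared directly with H3K36A, eaf3∆ had a log2 ratio of -0.78, and 4.79% of genes had a lower ratio between these mutants. The 2 paralogs therefore stood in a similar ratio in 3 genotypes and a higher one in the other: RPH1 to GIS1 was 1.95 in wild type, 1.90 in set2∆ and 1.68 in H3K36A, against 3.58 in eaf3∆. In eaf3∆, RPH1 kept 72.05% of its wild-type RPKM. With 5 added to each RPKM the 4 ratios were 1.62, 1.48, 1.40 and 2.09, with eaf3∆ still the highest. The number of reads behind 3.67 RPKM is unknown.

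Jhd1 removes methyl groups from mono- and dimethylated lysine 36. JHD1 (YER051W, chromosome V 254656 to 256134) had an RPKM of 9.08 in wild type, 6.36 in set2∆, 7.09 in H3K36A and 4.91 in eaf3∆, the same order of genotypes as GIS1. Its relative log2 was -0.14, 0.13 and -0.29. The direction in each of the 3 mutants flipped under at least 1 scaling: quantile normalization gave 0.10, 0.39 and 0.04. In H3K36A, RPH1, JHD1 and GIS1 had a median relative log2 of 0.07, against -0.34 in set2∆ and -0.29 in eaf3∆. After quantile normalization the median of these genes was 0.32 in H3K36A, -0.11 in set2∆ and 0.04 in eaf3∆. On the authors' scale it was -0.37, -0.65 and -0.77 in the same order. The direction of the median in H3K36A and in eaf3∆ therefore depended on the scale.

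Set1 is the catalytic subunit of COMPASS, which methylates lysine 4 of H3 near gene starts, and Dot1 methylates lysine 79 in the nucleosome core; the higher methylation states of both depend on ubiquitin on histone H2B. SET1 (YHR119W, chromosome VIII 346043 to 349285) had an RPKM of 19.4 in wild type, 11.9 in set2∆, 10.9 in H3K36A and 11.3 in eaf3∆. The mutants lay close to each other, with relative log2 of -0.35, -0.33 and -0.25, and each was below 0 on all 5 scales.

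DOT1 (YDR440W, chromosome IV 1342493 to 1344241) had an RPKM of 11.0 in wild type, 4.83 in set2∆, 3.89 in H3K36A and 4.15 in eaf3∆. It was the only member at least 2-fold lower in all 3 mutants, which 10.5% of all genes were. It kept 43.9%, 35.3% and 37.7% of the wild-type RPKM, with log2 ratios of -1.04, -1.30 and -1.22. Relative to the median gene these became -0.73, -0.85 and -0.74, and 10.4%, 13.8% and 15.0% of genes had a lower ratio. Quantile normalization gave -0.50, -0.58 and -0.43. The ratio of SET1 to DOT1 was 1.77 in wild type and 2.46, 2.81 and 2.73 in set2∆, H3K36A and eaf3∆. With 5 added to each RPKM the 4 ratios were 1.53, 1.72, 1.79 and 1.78.

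Isw1 is the ATPase of Isw1a, together with Ioc3, and of Isw1b, together with Ioc2 and Ioc4. ISW1 (YBR245C, chromosome II 708150 to 711539) had an RPKM of 31.0 in wild type, 16.02 in set2∆, 12.8 in H3K36A and 14.8 in eaf3∆. It was the third highest member in every genotype. Its wild-type RPKM was 1.93, 2.41 and 2.10 times that of the mutants, and its relative log2 was -0.59, -0.76 and -0.54. The log2 ratio was below 0 on all 5 scales in each mutant, with the highest value at -0.48.

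IOC4 (YMR044W, chromosome XIII 355384 to 356811), the gene of the subunit that reads methylated lysine 36, had an RPKM of 10.3 in wild type, 5.32 in set2∆, 2.94 in H3K36A and 4.89 in eaf3∆. H3K36A stood below the other mutants. Its log2 ratio to wild type there, -1.52, was the lowest of the 30, and the relative value was -1.08, with 8.13% of genes lower. Compared with set2∆ the H3K36A mutant had a log2 ratio of -0.68, and 5.24% of genes had a lower ratio between these mutants. Compared with H3K36A eaf3∆ had a ratio of 0.58, and 97.4% of genes had a lower one. The ratio of ISW1 to IOC4 was 3.01 in wild type, 3.01 in set2∆ and 3.02 in eaf3∆, against 4.38 in H3K36A. With 5 added to each RPKM the same 4 ratios became 2.35, 2.04, 2.00 and 2.25, with H3K36A no longer the highest.

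**Figure D3:**
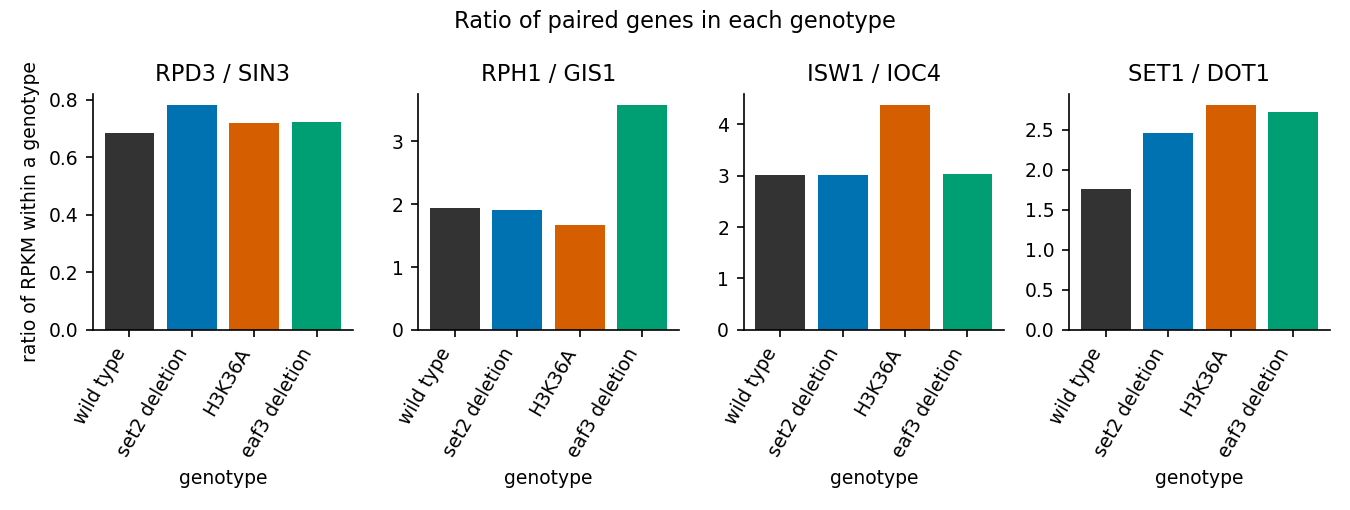
Ratio of the RPKM of paired genes within each genotype, a bar per genotype, each panel with its own axis from 0. RPH1 over GIS1 is highest in the eaf3 deletion (3.58), ISW1 over IOC4 in H3K36A (4.38), and SET1 over DOT1 is higher in each mutant than the 1.77 of wild type.

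By the sign of the log2 ratio on every scale, 4 of the 10 genes were below 0 in all 3 mutants on all 5 scales, SET1, DOT1, ISW1 and IOC4, against 32.6% of the 5128 genes that have a value on every scale, a share near that of the members. The other 6 were the 3 core deacetylase genes and the 3 of the demethylase family. The median relative log2 of the 10 was -0.34 in set2∆, -0.10 in H3K36A and -0.27 in eaf3∆, where that of all genes is 0 by construction. Directly between mutants, 0 of the 10 differed by at least 2-fold in any of the 3 comparisons. The share of all genes at least 2-fold lower or higher was 1.01% and 1.88% for H3K36A against set2∆, 1.13% and 0.282% for eaf3∆ against set2∆, and 2.53% and 0.563% for eaf3∆ against H3K36A.

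The other genes of these pathways were taken as lists: 60 related genes in 10 lists, of which 49 in 9 lists have a row. Of these 49, 8 were at least 2-fold lower in set2∆, 19 in H3K36A and 17 in eaf3∆, and 0, 1 and 1 higher. The shares lower were 16.3%, 38.8% and 34.7%, against the 11.4%, 23.5% and 22.9% of all genes, and these differences were not tested. Their median relative log2 was -0.26, -0.41 and -0.29.

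The subunits that distinguish Rpd3L from Rpd3S had lower median ratios than the shared core. Of 9 Rpd3L subunit genes, all with a row, 2, 4 and 4 were at least 2-fold lower in set2∆, H3K36A and the eaf3 deletion (1, 3 and 3 relative to the median gene), and the median relative log2 was -0.58, -0.49 and -0.32. CTI6 (YPL181W), whose product has a PHD finger, had an RPKM of 13.6 in wild type, 4.01 in set2∆, 2.67 in H3K36A and 2.87 in eaf3∆. ASH1 (YKL185W), the repressor of mating-type switching in daughter cells, had 78.7, 35.6, 22.7 and 24.4 in the same order. SAP30 (YMR263W) had 10.3, 4.71, 3.46 and 1.88, and RXT2 (YBR095C) 10.9, 5.07, 3.05 and 3.90. DEP1 (YAL013W) lay near the median gene, with 19.1, 15.9, 15.1 and 15.1 and relative log2 of 0.06, 0.12 and 0.16.

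Among the genes for adding and removing ubiquitin on histone H2B, 3, 4 and 4 of 5 were at least 2-fold lower (1, 3 and 3 after subtracting the median gene). Their median relative log2 was -0.88, -1.14 and -1.05, the lowest of the 9 lists in each mutant, and quantile normalization gave -0.76, -0.97 and -0.88. BRE1 (YDL074C), the ubiquitin ligase, had an RPKM of 14.9 in wild type, 3.53 in set2∆, 3.53 in H3K36A and 2.72 in eaf3∆. RAD6 (YGL058W), the conjugating enzyme that works with Bre1, had 52.1, 35.4, 24.1 and 25.1. The deubiquitinase genes were lower as well: UBP10 (YNL186W) had 49.7, 21.1, 12.6 and 16.5, and UBP8 (YMR223W) 19.4, 7.82, 5.80 and 5.94. Both writers and erasers of the H2B mark that Set1 and Dot1 require were thus at lower RPKM in the mutants.

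Of 7 other COMPASS subunit genes, 6 have a row, and 1, 2 and 2 were at least 2-fold lower in set2∆, H3K36A and eaf3∆, none of them relative to the median gene. These were SDC1 (YDR469W), at 10.3 RPKM in wild type and 4.18, 4.45 and 3.15 in the mutants, and BRE2 (YLR015W), with 10.1 against 5.46, 3.27 and 4.12. The list's median relative log2 was -0.08, -0.10 and -0.05, and quantile normalization gave 0.030, -0.022 and 0.072. The other JmjC genes, JHD2 (YJR119C), the demethylase of lysine 4, and ECM5 (YMR176W), had no ratio beyond 2-fold and a median relative log2 of -0.12, -0.04 and -0.12, which turned to 0.11, 0.22 and 0.19 after quantile normalization: JHD2 had 5.56, 4.66, 5.11 and 3.78, and ECM5 12.3, 7.41, 6.27 and 6.88, from wild type to eaf3∆ in the order used above.

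Of 7 genes of other Isw1, Isw2 and Chd1 remodelers, 1, 4 and 3 were at least 2-fold lower (1, 2 and 1 after subtracting the median gene), and their median relative log2 was -0.30, -0.58 and -0.44. ISW2 (YOR304W), the ATPase of the related Isw2 complex, had an RPKM of 12.9 in wild type, 4.01 in set2∆, 2.25 in H3K36A and 2.97 in eaf3∆. Its partner gene ITC1 (YGL133W) had 5.38, 2.40, 1.58 and 1.58. IOC3 (YFR013W), of the Isw1a subunit, had 18.7, 9.81, 6.18 and 7.25. DPB4 (YDR121W), a histone-fold protein shared with DNA polymerase epsilon, had 33.1, 23.7, 15.7 and 16.98. IOC2 (YLR095C), the remaining Isw1b subunit, was not beyond 2-fold in any mutant, with 19.8, 12.5, 11.5 and 11.2, and its relative log2 of -0.30, -0.29 and -0.28 lay above that of ISW1 and IOC4 in each. CHD1 (YER164W) and DLS1 (YJL065C) lay above the median gene in each mutant. The relative log2 was 0.02, 0.03 and 0.15 for CHD1 and 0.22, 0.40 and 0.36 for DLS1.

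**Figure D4:**
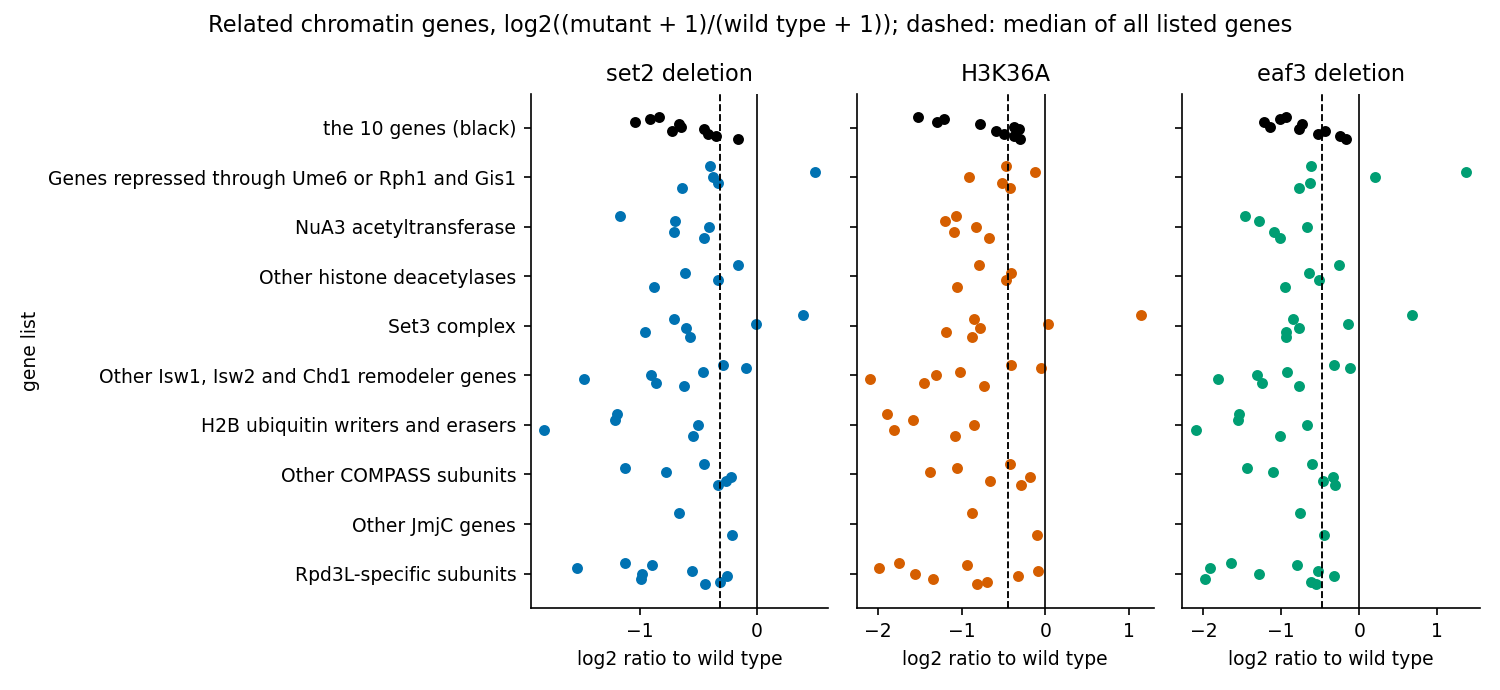
Log2((mutant + 1)/(wild type + 1)) of each gene with a row in the 9 related lists (coloured points) and of the 10 genes (black), a panel per mutant; dashed lines mark the median of all genes and solid lines 0. Most points lie left of 0 in every panel, and the point furthest to the right is CAR2 in set2∆ and eaf3∆ and CPR1 in H3K36A.

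The remaining lists held few genes beyond 2-fold in set2∆. In the NuA3 acetyltransferase, which binds H3 methylated at lysine 4 or 36, 5 of 6 genes have a row, and 1, 3 and 4 were at least 2-fold lower, none relative to the median gene; the list median was -0.38, -0.62 and -0.61 in relative log2. PDP3 (YLR455W), which encodes the other yeast PWWP protein and also reads methylated lysine 36, had an RPKM of 10.2 in wild type, 3.97 in set2∆, 4.34 in H3K36A and 3.07 in eaf3∆. The values of EAF6 (YJR082C) were 18.7, 11.1, 7.53 and 7.10, those of YNG1 (YOR064C) 15.8, 9.25, 6.86 and 6.87, and those of NTO1 (YPR031W) 7.69, 5.34, 4.45 and 3.30. PDP3 thus differed from IOC4 in order: IOC4 had its lowest value in H3K36A and PDP3 in eaf3∆.

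Of 6 other histone deacetylase genes, 4 have a row and 0, 1 and 0 were at least 2-fold lower, HDA1 (YNL021W) in H3K36A, at 20.4 RPKM in wild type and 10.6, 9.28 and 10.1 in the mutants. In the Set3 deacetylase complex, 6 of 7 have a row and 0, 1 and 0 were at least 2-fold lower, HOS4 (YIL112W) in H3K36A, with 8.73 against 4.02, 3.27 and 4.08. The median relative log2 was -0.16, -0.18 and -0.09 for the deacetylase list, turning to 0.08, 0.0083 and 0.22 after quantile normalization, and -0.27, -0.37 and -0.33 for the Set3 complex. The gene of that list at least 2-fold higher was CPR1 (YDR155C), an abundant cyclophilin that also works outside the complex, with 1767 in wild type, 2316 in set2∆, 3898 in H3K36A and 2816 in eaf3∆.

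Genes that Rpd3L represses through Ume6, or that Rph1 and Gis1 repress, were taken as known targets. Their median relative log2 was -0.06, -0.02 and -0.14, and 0.023, 0.032 and 0.23 after quantile normalization. Of 9, 5 have a row, and 1 was beyond 2-fold, CAR2 (YLR438W), an enzyme of arginine breakdown, in eaf3∆, with an RPKM of 95.4 in wild type, 134 in set2∆, 87.4 in H3K36A and 248 in eaf3∆. CAR1 (YPL111W), the arginase gene, had 134, 103, 71.0 and 155. Both arginine genes had their highest value in eaf3∆, CAR1 with a log2 ratio of 0.20 to wild type. The other 3 genes with a row were below wild type in eaf3∆. PHR1 (YOR386W), the photolyase gene repressed by Rph1, had 4.35, 3.04, 2.87 and 2.48, and INO1 (YJL153C), of inositol synthesis, 8.02, 4.78, 5.75 and 4.28. The meiotic genes SPO13, HOP1, SPO11 and REC114 have no row in the table as used here, in which the lowest value is 1.00.

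The patterns most like those of DOT1, ISW1 and IOC4, the 3 members with the widest range over genotypes, were found by the Euclidean distance of log2(RPKM + 1) over the 4 genotypes after each gene was centred on its own mean. For DOT1 these were PRP21 (distance 0.012) and CHZ1 (0.012), for ISW1 THP3 (0.029) and SPT6 (0.031), and for IOC4 MPP10 (0.052) and UTP20 (0.057). With 4 points a gene, near matches are common: 389 genes lay within 0.25 of DOT1, 449 of ISW1 and 109 of IOC4. The member closest to ISW1 was DOT1, at a distance of 0.147, and 91 other genes were closer to ISW1.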

How the data were processed

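The 8 RNA libraries, 2 per genotype, were rRNA-depleted and stranded, per the labels' protocols. For these, the submitters' processing notes list CASAVA, TopHat2 2.0.14 and the build sacCer3. Per the file headers, the deposited RPKM are averages that the authors took over each genotype's libraries. The sources used here do not give the RPKM tool, the gene models, the use of strand, the library size or how multiply mapped reads were handled. Depth is unknown. The 9 ChIP and input libraries were not analysed here.

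Of 5328 rows, 2 without a gene name (0.0032% of the summed wild-type RPKM) were dropped; 3 lines had been emptied for this work. The planned limma test required separate libraries, so its stated replacement for averaged columns was used: log2 ratios with a pseudocount of 1, counts beyond 2-fold over all 5326 genes, and no test. Low genes were kept so that all 10 members are counted; 6 have a mean RPKM of at least 10. The 5 scales are the authors' values, centring on the median gene, quantile normalization, equal RPKM sums without 44 small RNA genes, and centring within 10 groups of gene length. Names and coordinates came from RefSeq's R64 table, the assembly of sacCer3; 5128 genes and all 10 members matched by systematic name, and 0 annotated genes overlap a member.

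The members and lists were chosen with earlier results of these data known. Besides the members, the genes named are those of each list beyond 2-fold in any mutant, up to 6, or otherwise the 2 with the largest ratios; the annotated genes beside each member; and the 2 nearest patterns of the 3 members with the widest range. DEP1, LGE1, IOC2, CHD1, DLS1, CAR1, PHR1 and INO1 were named outside that rule after their values were seen. The ratios, and the 2-fold counts at an RPKM of at least 10, were checked on simulated data with set fold changes, which covers the arithmetic only. For quantile normalization it was checked only that H3K36A and wild type received the same set of values. The other steps were not checked in this way. The computation was run with Python 3.11.15, pandas 2.3.3 and numpy 2.4.6.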

Additional observations from a re-analysis of the deposited data

How the results depend on the processing

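No paired analysis was possible because the table holds a mean per genotype, and for the same reason leaving out a replicate, a replicate block and limma were not run. No member ratio beyond 2-fold changed sign under any alternative listed here, and the count of members at least 2-fold higher was 0 in every setting. The counts at least 2-fold lower, 1, 3 and 3 in set2∆, H3K36A and eaf3∆, became 0, 1 and 0 with a pseudocount of 5, with centring on the median gene and with centring within length groups, 0, 0 and 0 after quantile normalization, and 0, 1 and 1 among the 6 members with a mean RPKM of at least 10. In eaf3∆ the count was 4 with a pseudocount of 0.1, where IOC4 also passed. It was 2 without small RNA genes and 2 among the 8 members with a wild-type RPKM of at least 10. The median log2 ratio of the members, -0.66, -0.54 and -0.75, became -0.49, -0.42 and -0.54 with a pseudocount of 5, -0.34, -0.10 and -0.27 centred on the median gene, -0.17, -0.014 and -0.031 after quantile normalization, and -0.22, 0.0089 and -0.23 centred within length groups. With a mean RPKM of at least 10 it was -0.54 in set2∆ and -0.48 in eaf3∆, and with a wild-type RPKM of at least 10, -0.68 in H3K36A and -0.63 in eaf3∆. Over all genes, the split of at least 2-fold higher to lower, 57 to 606, 168 to 1250 and 63 to 1220, became 107 to 201, 422 to 517 and 212 to 429 relative to the median gene, and 129 to 122, 408 to 434 and 223 to 308 after quantile normalization. The cause was not tested. The lower level of the members as a group therefore depends on the scale, and neither depth nor the spread between replicates is known.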

Other observations

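Of the annotated genes next to the members on the chromosome, 17 have a row, and 2, 5 and 4 of them were at least 2-fold lower in set2∆, H3K36A and eaf3∆. These shares, 11.8%, 29.4% and 23.5%, lie near the 11.4%, 23.5% and 22.9% of all genes. The median log2 ratio of the neighbours was -0.21, -0.39 and -0.40. Beside ISW1 lies GPX2, a glutathione peroxidase gene, 133 bp away, with an RPKM of 44.0 in wild type, 20.6 in set2∆, 17.8 in H3K36A and 15.5 in eaf3∆. On its other side, 51 bp away, RRT2 had 58.9, 51.6, 48.9 and 47.2. Beside IOC4 lies MCM1, which encodes a MADS-box transcription factor, with 71.8, 40.9, 27.6 and 33.7. Both neighbours of SET1 were at least 2-fold lower in H3K36A: ORC6, of the origin recognition complex, had 9.51, 4.24, 3.16 and 3.82, and MSH1, of mitochondrial DNA repair, 9.68, 7.01, 3.81 and 4.85. Beside DOT1, APT2 had 61.7, 67.8, 40.2 and 65.2.

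The neighbours of RPH1 differed from each other: CCA1, of tRNA maturation, had 23.6, 11.7, 8.85 and 10.5, and ADK2, an adenylate kinase gene, 7.21, 6.78, 5.53 and 5.17. Beside RPD3, PEX6 had 25.4, 25.7, 24.2 and 24.9, while AAD14 had 7.35, 6.39, 6.02 and 5.32. Beside SIN3, RPB11, an RNA polymerase II subunit gene, had 114, 122, 107 and 113, and PFA4 24.1, 24.96, 22.6 and 28.1. UME1 lies between MKK2, with 11.1, 7.48, 8.52 and 7.37, and the COMPASS gene SPP1, with 14.7, 10.5, 10.7 and 9.29. Beside GIS1, DNF2 had 51.2, 46.1, 47.4 and 55.6 and MSH6 28.1, 24.2, 20.3 and 24.1, and beside JHD1, HOM3 had 96.5, 71.2, 73.4 and 73.01.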
